A study of Mus musculus with 12 samples.

Results

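The collagen genes of mouse, chosen as every gene of the deposited table whose name has the form Col, a type number, the letter a and a chain number, were followed in blood at 3 times after injury. They numbered 43 of 37583 genes in the table. By type they fell into 9 fibrillar genes (types I, II, III, V and XI), 6 basement membrane genes (type IV), 6 beaded filament genes (type VI) and 22 genes of other types. At least 1 read was counted for 40 of them, while Col9a1, Col25a1 and Col28a1 were at 0 reads in every library. To be tested, a gene had to reach a deposited value of 1 in 4 or more libraries, and 21 collagens did, of which 7 were fibrillar, 5 basement membrane, 5 beaded filament and 4 of other types.

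All libraries came from wild type mice with a burn and a tenotomy, the cutting of a tendon. Whole blood was sorted on the iChip, a microfluidic device, and the enriched cells are labelled as cMPCs, an abbreviation that the labels do not spell out, together with blood cells. There were 12 total RNA libraries, 4 each at 6 h, 1 day and 7 days after injury, here 6h, Day1 and Day7, and uninjured blood was not analysed here. Whether the replicates are separate animals, or pools of blood, is not stated in the labels, so p-values describe the variation among these libraries, part of which may be technical.

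Collagens are secreted proteins whose chains wind around each other into a rope-like helix. Fibrillar collagens assemble into the fibres that give skin, tendon and bone their strength, type IV collagen forms the sheets of basement membranes, and type VI collagen forms beaded filaments around cells. Fibroblasts and other cells of connective tissue are the main makers of fibrillar collagen, and mature blood cells are not known for it.

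Library totals, recovered as whole reads from the deposited values, ran from 5098395 to 12379041. Haemoglobin genes took 16.1% to 70.3% of the reads. Reads of Y-linked genes were found in 6h replicates 3 and 4 and in Day1 replicates 2, 3 and 4, and in none of the others, Day7 included. Those 5 libraries also had the 5 highest summed deposited values of all collagens, 505.5 to 1673, against 36.4 to 247 in the other 7. The deposited value is the read number scaled to an effective library size set by the authors, and values per kb were divided by the gene length given in the table.

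The mean summed collagen value was highest at Day1, and it came mainly from the fibrillar genes. The 6h and Day1 libraries overlapped, since 6h replicate 3 had a collagen sum of 933, above the 247 and 859 of Day1 replicates 1 and 3. At 6h the fibrillar values of a library summed to 301 ± 322 (SD, n = 4), against 752 ± 488 (SD, n = 4) a day after injury and 56.6 ± 66.0 (SD, n = 4) on Day7. Beaded filament values summed to 60.7 ± 37.3, 156 ± 89.6 and 11.1 ± 8.31 (each SD, n = 4) at the same times. Basement membrane values were low throughout, with sums of 24.7 ± 16.8, 26.9 ± 11.3 and 4.01 ± 2.98 (each SD, n = 4). The SD was as large as the mean or larger for the fibrillar sum at 6h and at Day7, so the libraries of these groups were unlike each other. Collagen reads, not scaled for library depth, came to 13421 over the 6h group, 102032 over the Day1 group and 2639 over the Day7 group.

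**Figure D1:**
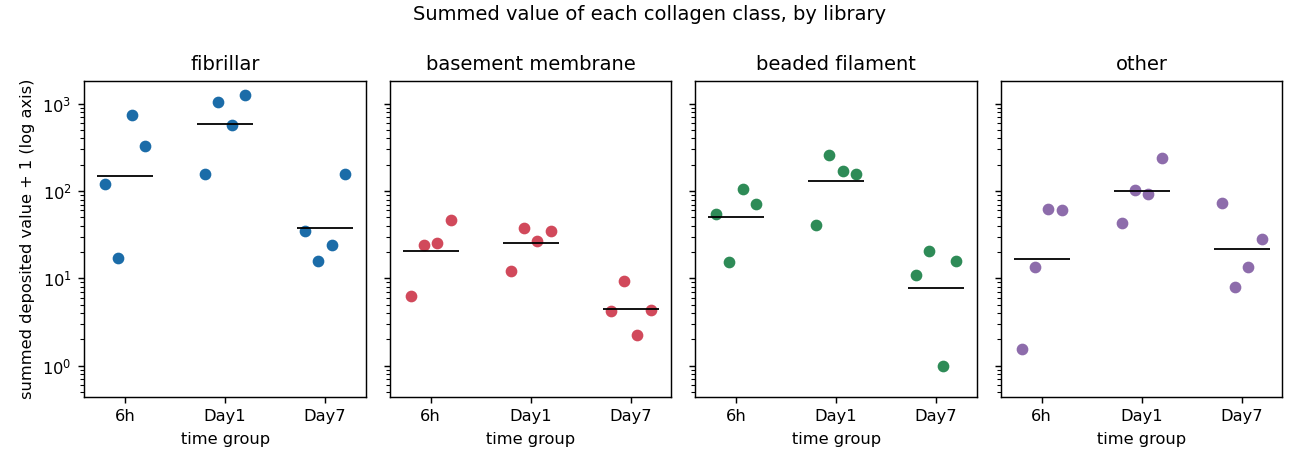
Summed deposited value of each collagen class in each of the 12 libraries (points, value + 1 on a log axis) by time group, with the geometric mean as a line. Fibrillar sums lay between 154 and 1244 at Day1 and between 14.9 and 155 at Day7.

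The division of collagen reads among the classes varied less among the Day1 libraries than within the other groups. Fibrillar genes held 62.2% to 74.4% of the collagen reads in the 4 Day1 libraries, 24.1% to 79.7% in those of 6h and 28.4% to 77.2% in those of Day7. The lowest fibrillar share was 24.1% (95% Wilson interval 18.4% to 31.0%) in 6h replicate 2, which had 174 collagen reads. In Day7 replicate 1 the fibrillar share was 28.4% (26.3% to 30.6%) and that of other types was 60.5% (58.1% to 62.8%). A single gene, Col18a1, held 869 of the 1039 reads of other types in that library. Day7 replicate 3 had 59 collagen reads in all, none of them of the beaded filament class, which allows a share of up to 6.11% by the Wilson interval. These intervals cover counting error only.

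Between Day1 and Day7, limma called 5 of the 21 tested collagens lower at an adjusted p under 0.05 and none higher. Of all 11211 genes tested, 3.59% were called lower, 2.19% higher and 5.78% in either direction. The called genes were the fibrillar Col1a1, Col1a2 and Col5a2, 3 of 7 in their class, and the beaded filament Col6a1 and Col6a2, 2 of 5. None of the 5 basement membrane or 4 other genes was called, although 3 of these 5 and 2 of these 4 had groups that did not overlap. In total 10 of 21 collagens were lower in every Day7 library than in every Day1 library, against 14.5% of all genes. In bulk samples, fewer cells of a type and less RNA per cell cannot be told apart.

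All 21 log2 differences were below 0, as were 61.8% of those of all genes. Their median was -2.48 on the log2(value + 1) scale, against -0.48 over all tested genes. By class the median was -3.96 for fibrillar, -3.47 for beaded filament, -2.19 for other and -1.93 for basement membrane genes. Whether the classes differ was not tested, and this scale understates changes of low genes, such as those of the basement membrane class. The unadjusted p of limma was under 0.05 for 16 of 21, against 18.0% of all genes on the lower side. The count of 5 became 0 without Day1 replicate 2, 3 or 4 or without Day7 replicate 3, 1 without Day7 replicate 2 and 2 without Day7 replicate 4. Those fits, in that order, called 11, 3, 19, 30, 40 and 108 of all genes lower, against 403 in the main fit. The collagen count was 0 with edgeR, which called 0.00892% of all genes lower, and 14 with DESeq2, which called 11.2%.

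**Figure D2:**
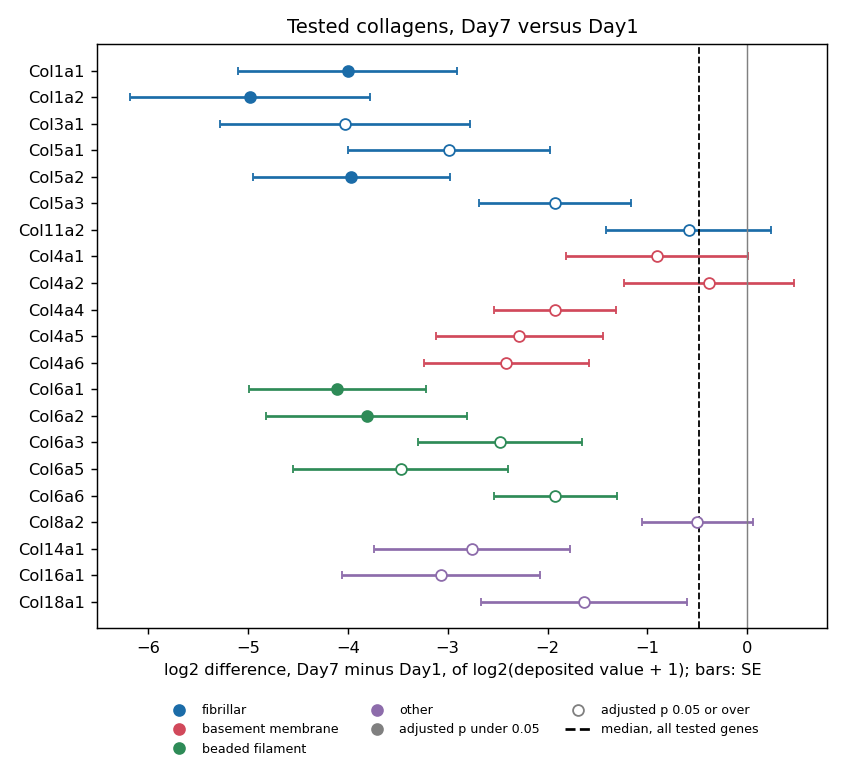
Fitted log2 difference from Day1 to Day7 of each tested collagen with its standard error, coloured by class, with filled points for those called and a dashed line at the median of all tested genes (-0.48). All 21 lay below 0, from Col4a2 at -0.38 to Col1a2 at -4.98.

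Among the fibrillar genes, Col1a1 and Col1a2 encode the chains of type I collagen, the main protein of bone, tendon and skin. Col1a1 was at deposited values of 1.49, 0.379, 93.9 and 35.3 in the 6h replicates 1 to 4, 15.1, 131, 89.7 and 113 at Day1, and 3.03, 2.30, 1.23 and 10.3 at Day7. Every Day7 library lay below every Day1 library, while 6h spanned both groups. It fell by 4.00 (SE 1.10) on the log2 scale from Day1 to Day7 (limma adjusted p = 0.039). When the fit held a term for Y-linked reads, the difference was -0.97 (limma adjusted p = 0.638). From Day1 to Day7 that fit called 0 of all 11211 genes, collagen or not. The call was also lost with edgeR (adjusted p = 0.111) and when a single library among Day1 replicates 2 to 4 and Day7 replicates 2 to 4 was left out, at limma adjusted p of up to 0.101.

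Col1a2 was at 18.3, 0.379, 224 and 112 in the 6h replicates, 45.2, 305, 149 and 296 at Day1, and 8.87, 2.11, 0 and 20.0 at Day7. The Day7 and Day1 libraries did not overlap, and 6h replicate 2 stood with the lowest. It fell by 4.98 (SE 1.20) from Day1 to Day7 (limma adjusted p = 0.0282), the largest fall among the tested collagens. With the term for Y-linked reads it was -2.09 (limma adjusted p = 0.412), with no filter on low values the limma adjusted p was 0.122, and with edgeR it was 0.112. Leaving out a single library among Day1 replicates 2 to 4 and Day7 replicates 2 and 3 also ended the call, at limma adjusted p of up to 0.0855. Against 6h its Day7 difference was -2.51 (SE 1.20), with a limma adjusted p of 0.27.

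Col3a1, which encodes the chain of type III collagen of pliable tissues such as skin and vessel walls, had the highest deposited value of the collagens. It was at 70.0, 0.379, 358 and 152 in the 6h replicates, 73.7, 509.9, 283 and 634 at Day1, and 15.9, 6.89, 4.93 and 122 at Day7. Day7 replicate 4 stood above Day1 replicate 1, so the groups overlapped. The difference was -4.03 (SE 1.26), and it missed the threshold at a limma adjusted p of 0.0541.

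Per kb of the deposited gene length, Col3a1 also led at Day1 with a mean level of 52.7, ahead of Col1a2 at 17.9, Col6a1 at 13.7 and Col1a1 at 13.0. The level per kb of Col3a1 was 4.60, 3.68, 2.97 and 5.26 times that of Col1a1 in Day1 replicates 1 to 4. Col1a2 per kb was 1.81, 1.41, 1.00 and 1.57 times Col1a1, with Day1 replicate 3 at an even ratio. Outside Day1 the ratio of Col3a1 to Col1a1 had a wider range, from 3 libraries, most of them with few Col1a1 reads. It was 44.1 in 6h replicate 1 (375 against 8 reads), 11.2 in Day7 replicate 4 (368 against 31 reads) and 0.94 in 6h replicate 2 (1 read each). The rest were near the Day1 values, at 3.59 and 4.06 in 6h replicates 3 and 4 and 4.94, 2.82 and 3.76 in Day7 replicates 1 to 3. Over the 12 libraries the log2 values of Col1a2 and Col3a1 correlated with Pearson r = 0.96 and those of Col1a1 and Col1a2 with r = 0.94, as a description, since the points share each library's depth and scaling.

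The start regions of the leading fibrillar genes are shown to let their letters be compared, since these genes had high values in the same libraries. The windows are from RefSeq on GRCm38.p6, another build than the mm9 of the deposited table, and run from 250 bases before to 50 after the annotated start. Col1a2 lies at chr6:4505368-4505667 on the plus strand and Col3a1 at chr1:45311288-45311587 on the plus strand. Capitals mark the CCAAT box, the letters TATAAA of the TATA box and the GC box GGGCGG, each read on both strands, and none of these matches overlap. On the reverse strand the CCAAT box reads as ATTGG.
Col1a2: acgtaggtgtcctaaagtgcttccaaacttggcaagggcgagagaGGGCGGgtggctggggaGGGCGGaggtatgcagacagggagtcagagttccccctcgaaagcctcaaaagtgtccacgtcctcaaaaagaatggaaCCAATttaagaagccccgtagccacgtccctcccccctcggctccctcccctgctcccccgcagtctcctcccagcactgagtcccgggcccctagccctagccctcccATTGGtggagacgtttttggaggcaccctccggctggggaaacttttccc
Col3a1: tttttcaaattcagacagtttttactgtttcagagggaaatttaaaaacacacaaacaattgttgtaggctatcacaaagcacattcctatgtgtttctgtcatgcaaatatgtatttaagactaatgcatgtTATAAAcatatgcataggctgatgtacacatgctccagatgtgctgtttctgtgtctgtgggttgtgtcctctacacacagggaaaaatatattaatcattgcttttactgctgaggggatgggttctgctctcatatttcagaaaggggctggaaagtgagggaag
The window of Col1a2 held GGGCGG at positions 46 and 63 and CCAAT at 142, with its reverse at 251, counted from 1 at the 5′ end. That of Col3a1 held only TATAAA, at 134. A window was at hand for 35 of the 43 collagens, in 38 windows. CCAAT was in 34.2% of the collagen windows and 37.4% of all 32851 windows of the same length, TATAAA in 13.2% and 13.6%, and GGGCGG in 60.5% and 35.7%. The median GC content was 59.8% in the collagen windows and 52.7% in all. A match is a description of letters, not a site of binding.

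Col5a1 and Col5a2 encode chains of type V collagen, which sits within type I fibrils and governs their diameter. Col5a2 was at 17.0, 0, 26.8 and 2.64 in the 6h replicates and at 2.84, 23.4, 17.3 and 35.8 at Day1. At Day7 it was at 0.0688 in replicate 1, which is 1 read, and at 0 in the other 3. The Day7 and Day1 libraries did not overlap, and it fell by 3.96 (SE 0.99; limma adjusted p = 0.0299). With the term for Y-linked reads it was -2.55 (limma adjusted p = 0.304), and the call was lost with edgeR and when a single library among replicates 2 to 4 of Day1 or of Day7 was left out. Col5a1 was at 0, 14.4, 38.6 and 23.1 in the 6h replicates, 12.4, 64.8, 32.2 and 64.9 at Day1, and 2.96, 1.34, 16.7 and 2.00 at Day7. Day7 replicate 3 stood above Day1 replicate 1, and the difference of -2.98 (SE 1.01) missed the threshold at a limma adjusted p of 0.0665.

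**Figure D3:**
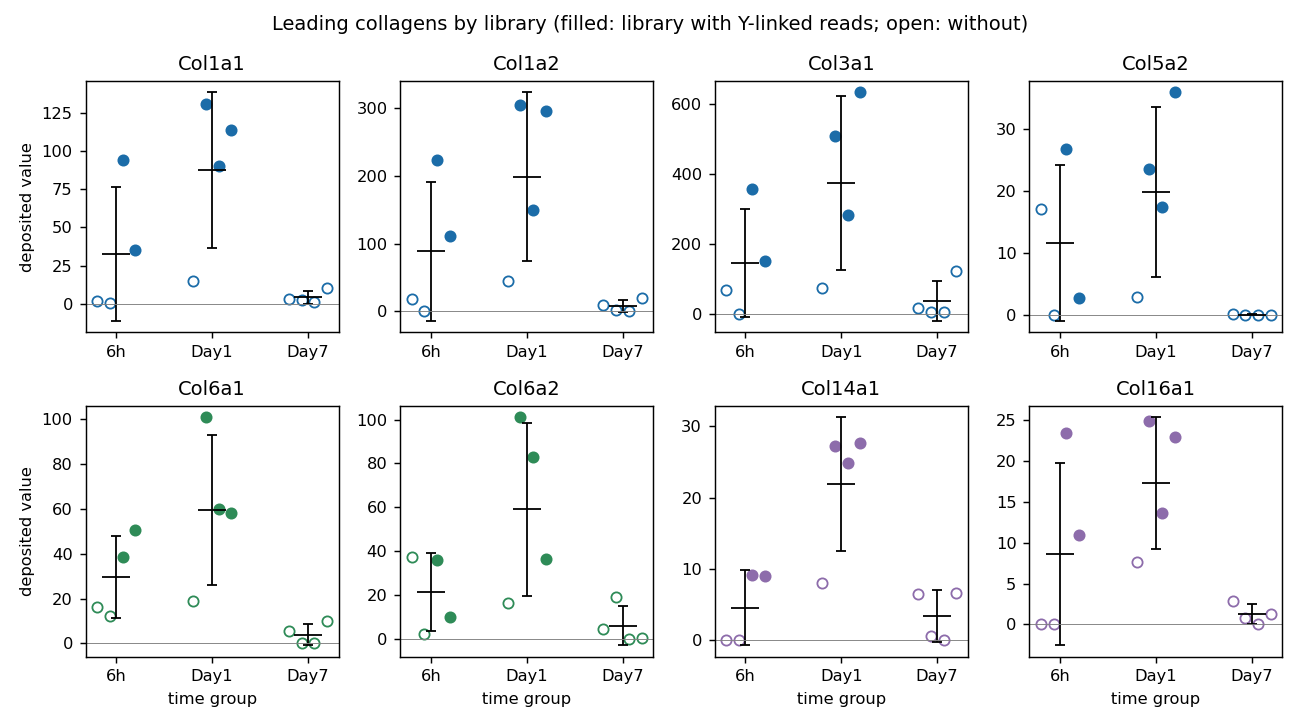
Deposited value of 8 collagens in each library by time group on linear axes, with mean and SD in black and filled points for libraries with Y-linked reads. Every Day7 point of Col1a1, Col1a2, Col5a2 and Col6a1 lies below every Day1 point.

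Col2a1, the fibrillar collagen of cartilage, was read in 1 library alone. It had 1874 reads in Day1 replicate 4, a deposited value of 72.9, and 0 reads in the other 11 libraries. Against a floor of 3 reads over the group, the Day1 level was at least 228-fold higher than 6h and at least 193-fold higher than Day7, all of it from that library. Col10a1, the collagen of the enlarged cartilage cells that precede bone, was likewise found in Day1 replicate 4 alone, with 1391 reads and a deposited value of 54.1. Its Day1 level was at least 169.6-fold higher than 6h and at least 143-fold higher than Day7 on the same floor. Neither gene passed the condition for testing.

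Other genes of cartilage and bone were measured in the same library. Chosen after its values were seen, Col9a3, a chain of the type IX collagen on cartilage fibrils, was at 19.8 in Day1 replicate 4, at 1.44 in Day1 replicate 2 and at 0 elsewhere. The other type IX chains, Col9a1 and Col9a2, were at 0 in Day1 replicate 4. Col11a2, of type XI, was at 11.7 there and at 11.4 in 6h replicate 1. In Day1 replicate 4, Acan, the main proteoglycan of cartilage, was at 11.8 and Sox9, the cartilage transcription factor, at 16.2. Sox9 was also at 3.21, 2.83 and 7.81 in Day1 replicates 1 to 3 and at 1.89 and 5.07 in 6h replicates 2 and 3. Ibsp, a protein of bone matrix, was at 164.6 there, and the phosphatase of bone mineralization Alpl was at 20.6. Not all bone genes were highest there, since Runx2, the osteoblast transcription factor, was at 28.2 in that library and 63.9 in Day1 replicate 1, and Bglap, or osteocalcin, was at 0 there and at 12.7 in 6h replicate 1. Comp was at 0.6 there, and Matn1, Hapln1 and the osteoblast factor Sp7 were at 0 in every library. The cartilage marker list summed to between 2.83 and 28.6 at Day1, and to at most 5.07 at 6h and 3.45 at Day7, and the part of such markers in the values of Col2a1 and Col10a1 was not tested.

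Type IV collagen genes, which make the network of basement membranes, had the smallest median difference of the classes from Day1 to Day7. Chosen after their values were seen, Col4a1 and Col4a2 encode the chains of its most widespread form. Col4a1 was at 0.373, 12.9, 6.04 and 15.7 in the 6h replicates, 4.33, 12.6, 3.19 and 0.973 at Day1, and 2.27, 3.64, 0.617 and 0.998 at Day7. Col4a2 was at 0, 9.09, 7.48 and 6.29, then 1.85, 5.65, 1.06 and 0.35, and then 0.757, 4.21, 0 and 0.998. For both genes the 3 groups overlapped. They were the only tested collagens with a Day1 difference from 6h below 0, at -0.48 (SE 0.91) and -0.89 (SE 0.85), neither of which passed the limma test. Their log2 values correlated over the 12 libraries with r = 0.92, a description in which the points share each library's depth.

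Col4a1 and Col4a2 start next to each other on opposite strands, and their windows are shown for the stretch that they share. On GRCm38.p6, the RefSeq window of Col4a1 is chr8:11312777-11313076 on the minus strand and that of Col4a2 is chr8:11312555-11312854 on the plus strand. The annotated starts are 21 bases apart. Capitals mark the 78 bases that both windows hold, one as the reverse complement of the other.
Col4a1: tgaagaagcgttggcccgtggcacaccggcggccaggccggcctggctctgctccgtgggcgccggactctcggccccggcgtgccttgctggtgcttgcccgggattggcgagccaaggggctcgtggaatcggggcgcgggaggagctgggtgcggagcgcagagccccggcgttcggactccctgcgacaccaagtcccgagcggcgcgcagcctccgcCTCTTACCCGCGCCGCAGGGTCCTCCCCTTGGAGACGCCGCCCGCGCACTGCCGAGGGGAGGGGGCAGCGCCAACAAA
Col4a2: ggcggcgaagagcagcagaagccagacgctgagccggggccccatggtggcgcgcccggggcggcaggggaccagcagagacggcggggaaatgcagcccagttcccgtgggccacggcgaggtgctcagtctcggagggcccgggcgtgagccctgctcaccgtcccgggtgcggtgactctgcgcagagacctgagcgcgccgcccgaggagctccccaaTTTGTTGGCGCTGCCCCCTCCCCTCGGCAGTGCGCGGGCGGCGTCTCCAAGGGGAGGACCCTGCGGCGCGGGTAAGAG
Of the 5 windows of basement membrane collagens, 4 held GGGCGG and 0 held TATAAA. The other type IV genes were read mainly before Day7. Col4a6, which pairs with Col4a5 in some epithelia, had 836 reads at Day1, 662 of them in replicate 4, and 0 at Day7. Its Day7 level was at least 86.2-fold lower than Day1 on the floor of 3 reads over the group, or at least 26.6-fold lower without Day1 replicate 4. The limma differences of Col4a4, Col4a5 and Col4a6 from Day1 to Day7 were -1.93, -2.28 and -2.41, and none passed the threshold.

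**Figure D4:**
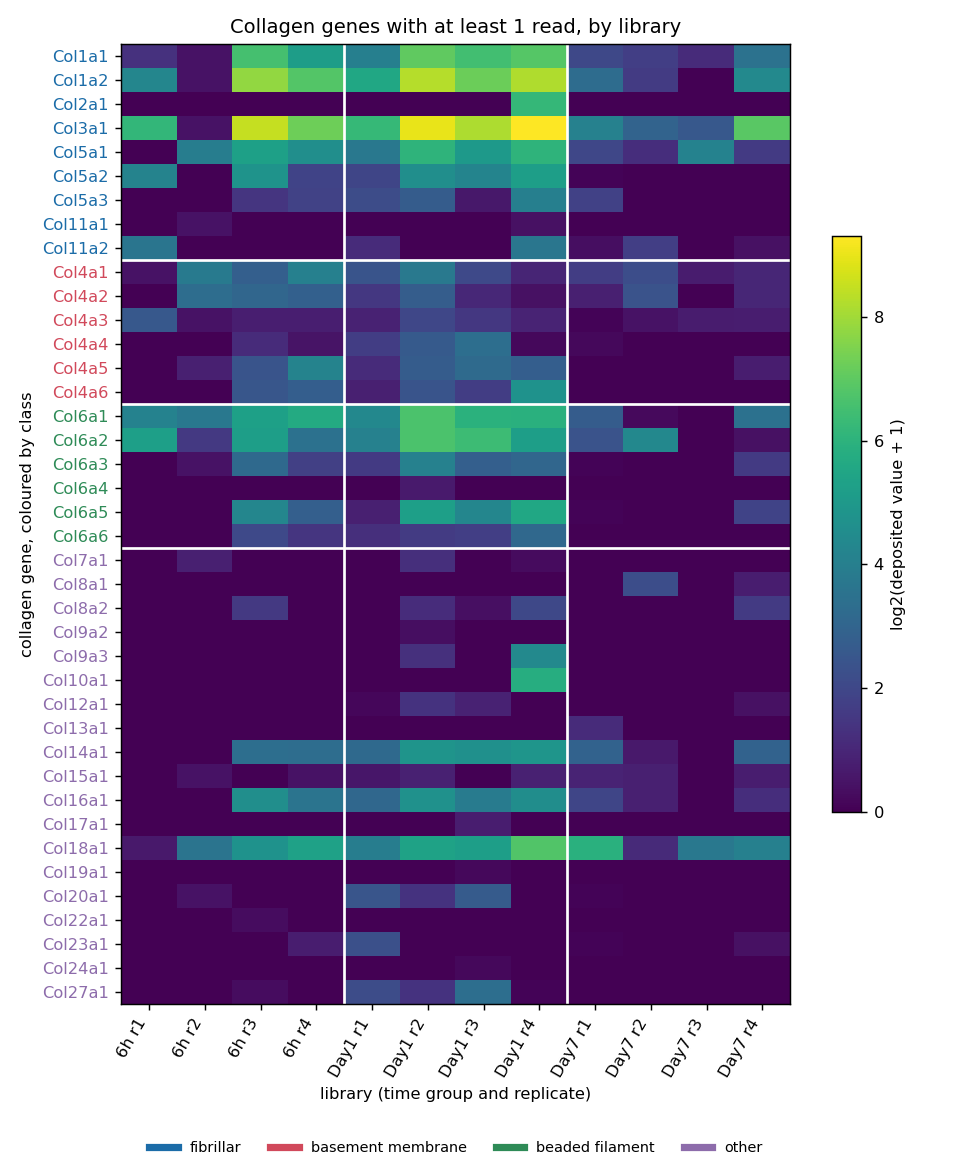
Log2(value + 1) of each collagen with a read in each of the 12 libraries, ordered by class. Day1 replicate 4 is the sole library with a value for Col2a1 and Col10a1.

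All 5 tested type VI collagen genes had differences below 0 from Day1 to Day7, and 2 of them were called lower. Over all genes, 61.8% had differences below 0 and 3.59% were called lower. Col6a1, a chain of the beaded filaments that surround cells, was at 16.4, 12.1, 38.6 and 50.7 in the 6h replicates, 19.2, 101, 60.1 and 58.4 at Day1, and 5.50, 0.191, 0 and 9.98 at Day7. It lay lower in every Day7 library than in every library of both earlier times, the sole tested collagen of which this held against 6h. It fell by 4.11 (SE 0.88) from Day1 to Day7 (limma adjusted p = 0.0185). With the term for Y-linked reads it was -2.84 (limma adjusted p = 0.211), and the call was lost with edgeR and when a single library among Day1 replicates 2 to 4 and Day7 replicates 2 and 3 was left out. Against 6h its difference of -3.11 (SE 0.88) missed the threshold at a limma adjusted p of 0.0747.

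Col6a2, its partner chain, was at 37.2, 1.89, 36.0 and 10.1 in the 6h replicates, 16.2, 101, 82.8 and 36.2 at Day1, and 4.27, 19.1, 0 and 0.333 at Day7. Day7 replicate 2 stood above Day1 replicate 1, so the groups overlapped although the gene passed the test. It fell by 3.81 (SE 1.01; limma adjusted p = 0.0335). With the term for Y-linked reads it was -2.77 (limma adjusted p = 0.299), and the call was lost with edgeR and when a single library among Day1 replicates 2 to 4 and Day7 replicates 3 and 4 was left out. Col6a5, a longer chain of the same type, was at 0, 0, 18.3 and 6.11, then 0.742, 36.8, 18.1 and 46.1, and then 0.0688, 0, 0 and 2.66. Its difference of -3.47 (SE 1.08) missed the threshold at a limma adjusted p of 0.0539. Col6a6 had 305 reads at Day1, 199 of them in replicate 4, and 0 at Day7, at least 31.5-fold lower, or at least 16.2-fold without that library.

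Of the 22 genes of other types, 4 were tested and none passed the test in any comparison. Col14a1 encodes a collagen on the surface of fibrils. It was at 0, 0, 9.17 and 8.99 in the 6h replicates, 8.03, 27.2, 24.8 and 27.6 at Day1, and 6.54, 0.574, 0 and 6.65 at Day7. Day7 lay wholly below Day1, and the difference was -2.75 (SE 0.98; limma adjusted p = 0.0783). Col16a1, another collagen associated with fibrils, was at 0, 0, 23.4 and 10.9, then 7.66, 25.0, 13.7 and 23.0, and then 2.89, 0.766, 0 and 1.33. It too had no overlap between Day7 and Day1, with a difference of -3.07 (SE 0.99; limma adjusted p = 0.0599).

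Col18a1, a basement membrane collagen that carries heparan sulfate and yields endostatin, had another pattern. It was at 0.56, 11, 25.6 and 39.4 in the 6h replicates, 14.6, 39.9, 36.6 and 110.4 at Day1, and 59.8, 1.15, 12.3 and 15.6 at Day7. The Day7 replicate 1 value exceeded 3 of the 4 Day1 libraries, and the difference of -1.63 (SE 1.03) did not pass the limma test (adjusted p = 0.293). The same library held the highest sum of 8 hepatocyte genes, a list chosen after the data were seen, at 24227. In the 6h libraries those genes summed to 2.65 to 184, in the Day1 libraries to between 1762 and 5489.8, and in the lowest Day7 library to 134. Day7 replicate 4 had the next highest sum, 8351, with Col18a1 at 15.6. Day1 replicate 4 had the highest Col18a1 value, 110.4, at a sum of 5489.8. The part of the hepatocyte genes in the Col18a1 values was not tested.

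Of the 22 collagens that did not pass the condition for testing, 3 had no read and 19 had between 1 and 1874 reads over all libraries. Col4a3 was read in all 12 libraries with 197 reads, and Col15a1, an endostatin-related collagen of basement membrane zones, in 8 with 77. Col7a1, the anchoring fibril collagen of skin, had 52 reads in 3 libraries. Col11a1, which joins type II collagen in cartilage, had 10 reads in 2 libraries.

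Between 6h and Day1, limma called none of the 21 tested collagens, against 0.169% of all genes. The unadjusted p of limma was under 0.05 for 3 of them, all higher at Day1, against 9.77% of all genes on that side. The count was 0 also with edgeR and DESeq2, which called 0.0803% and 1.51% of all genes higher. Of 21 differences, 19 were above 0, against 71.6% of all genes, with a median of 1.56 against 0.52 over all genes. Col1a1 and Col14a1 had the largest differences, each 2.71, with limma adjusted p of 0.379 and 0.33. The 6h libraries fell apart, since replicates 3 and 4 had fibrillar sums of 744 and 328 and replicates 1 and 2 had 118 and 15.9.

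Between 6h and Day7, limma also called none of 21, against 0.883% of all genes in either direction and 0.277% lower. The unadjusted p of limma was under 0.05 for 4, all lower, against 5.9% of all genes on that side. The count of lower collagens was 1 with edgeR, against 0.232% of all genes, and 6 with DESeq2, against 7.1%. The median difference was -1.27 against 0.13 over all genes, and 19 of 21 were below 0, against 46.2% of all genes. Col6a1 was the 1 collagen whose groups did not overlap, against 2.38% of all genes with every Day7 library below every 6h library.

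The genes that fold and process collagen were read from fixed lists. All 17 tested genes of collagen folding and secretion had differences below 0 from Day1 to Day7, as did 61.8% of all genes. The limma test called 3 of them lower and none higher, against 3.59% of all genes called lower and 2.19% higher. Serpinh1, the collagen chaperone HSP47, had means of 125 ± 62.0, 97.7 ± 55.4 and 7.82 ± 6.80 (each SD, n = 4) at 6h, Day1 and Day7. It fell by 3.79 (SE 0.89; limma adjusted p = 0.0268) from Day1 to Day7, and also from 6h to Day7, by 4.30 (adjusted p = 0.0266). Fkbp10, a prolyl isomerase of the same pathway, fell by 3.64, and Lepre1, a prolyl 3-hydroxylase, fell by 3.36. The median of the list was -1.53, against -0.48 over all genes.

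From Day1 to Day7, 61.8% of all genes had differences below 0, 3.59% were called lower and 2.19% higher. Of 6 tested genes that trim or cross-link secreted collagen, 5 had differences below 0 from Day1 to Day7 and 2 were called lower. These were Pcolce, an enhancer of the protease that removes the carboxyl propeptide (fell by 4.12, limma adjusted p = 0.0177), and Adamts2, which removes the amino propeptide (fell by 3.82, limma adjusted p = 0.0331). Of 7 tested collagen receptors, 4 had differences below 0, a share near that of all genes. Of these 7, 1 was called lower and 2 higher, and the list's median difference was -2.06. Ddr1, an epithelial collagen receptor kinase, fell by 4.31 (limma adjusted p = 0.0135). Gp6, the platelet collagen receptor, rose by 4.30 (limma adjusted p = 0.0259) and Itgb1, the shared beta chain of collagen-binding integrins, rose by 2.82 (limma adjusted p = 0.0458). None of 4 tested collagen proteases passed the test. From 6h to Day1 no gene of these lists passed the limma test.

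The marker lists of other cell types went in both directions between Day1 and Day7. In that comparison 3.59% of all genes were called lower and 2.19% higher, and 61.8% had differences below 0. All 8 mesothelial markers, genes of the lining of body cavities, had differences below 0 from Day1 to Day7, with a list median of -4.53. The limma test called 6 of them lower. The sum of these markers was 504 to 2332 in Day1 libraries and 3.70 to 206 in Day7 libraries. In the 6h replicates it was 629, 24.6, 1982 and 1079, with replicates 3 and 4 again the highest. Of 6 tested fibroblast or mesenchymal markers, 2 were called lower. The sum of that list lay between 11.7 and 873 at 6h, between 204 and 1137 at Day1 and between 50.0 and 470.3 at Day7. The other 4 tested fibroblast or mesenchymal markers were not called. Among them Dcn, a proteoglycan that made up most of that sum, had a difference of -2.98 (limma adjusted p = 0.109), while Lum and Dpt had differences above 0, at 1.56 and 2.14. All 8 mesothelial markers were tested, and the fibroblast marker Pdgfra was at 2.04 at most. All 4 tested keratinocyte markers, genes of the outer skin, had differences below 0, and 2 were called lower. That list had sums of 65.9 to 378 in Day1 libraries and 0 to 5.64 in Day7 libraries. Its basal marker Krt5 was at 0 reads in every library. Of 5 tendon markers 2 were tested, Fmod and Tnxb, and both fell, with list sums of 15.8 to 96.8 in Day1 libraries and 0 to 7.43 in Day7 libraries. These sums came mostly from Fmod and Tnxb, with Day1 means of 37.8 and 33.8. The untested tendon markers Scx, Mkx and Tnmd had Day1 means of 0.535, 0.071 and 0, and Scx was highest in 6h replicate 2, at 11.7. The endothelial sum was 954 to 1844 in Day7 libraries against 86.1 to 344 in Day1 libraries, and none of the 4 tested members was called. Vwf made up most of that sum, with means of 161 at Day1 and 1135 at Day7. The list had a median difference of 2.39, with Vwf at 3.11, Pecam1 at 3.04, Plvap at 1.74 and Kdr at -2.03. Its untested members did not share the rise, with Day7 means of 0.166 for Cdh5, 0.237 for Tek and 0 for Emcn. All 5 platelet markers had differences above 0 and 2 were called higher, and their sum was 800 to 5526 at Day1 and 20350 to 34964 at Day7. The part of these cell types in the collagen values was not tested.

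**Figure D5:**
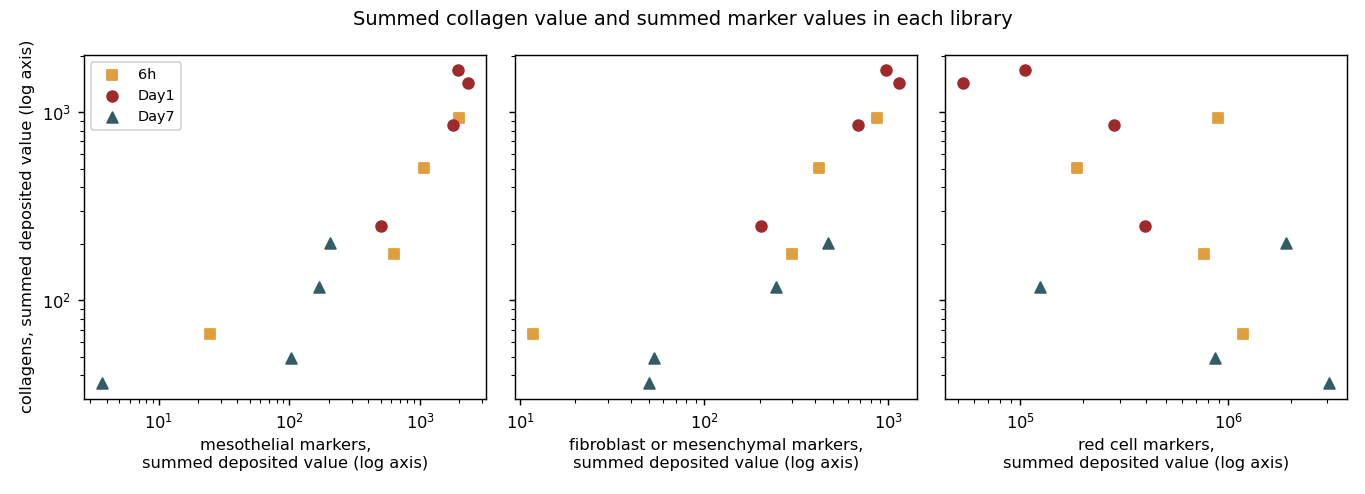
Summed deposited value of all collagens (vertical) against that of mesothelial, fibroblast and red cell markers (horizontal) in each library, all on log axes, with 1 symbol per time group. Libraries with high collagen sums, up to 1673, also had high mesothelial sums, up to 2332, and the red cell sums of the groups overlapped. Red cell sums were 53151 and 105417 in Day1 replicates 2 and 4, with collagen sums of 1435 and 1673. In Day7 replicate 3, with the lowest collagen sum, 36.4, the red cell sum was the highest, 3059440. Against this order, 6h replicate 3 (collagen 933) had 896307 and Day7 replicate 1 (collagen 118) had 123751.

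The Y-linked reads coincided in part with time, since no Day7 library had any. Among libraries without them, the summed collagen value was 178 and 65.9 at 6h, 247 in the single Day1 library and 36.4 to 201 at Day7. With a term for these reads in the limma fit, 0 collagens were called from Day1 to Day7 and the median difference was -0.95. That fit called 0 of all 11211 genes, with a median of -0.27 over all genes, so its lack of calls is not particular to the collagens. Among the libraries without Y-linked reads, 8 collagens passed the condition for testing, and their median was -1.99, against -0.085 over all genes. Only 1 Day1 library had no Y-linked reads, so that comparison rests on it for the Day1 level.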

How the data were processed

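Total RNA libraries of iChip-enriched blood were measured, 12 in all, grouped by the times in their titles. The authors deposited a signal per gene, named CPM in the file, and a gene length. STAR 2.7.10, HTSeq 2.0.1 and mm9 are given in the submitters' processing notes, while no annotation or scaling step is named there. In each deposited column the signal was a whole multiple of the value of 1 read (0.0314 to 0.617, within 0.001 reads for 99.9998% of values), so reads were recovered, 5098395 to 12379041 per library.

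From the deposited signal, log2(value + 1) was fitted with limma 3.58.1 (R 4.3.3, trended variance) over all 12 libraries, for the 11211 genes that reached a value of 1 in 4 or more libraries. P-values were adjusted by Benjamini-Hochberg over all of these at 0.05. The log2(value + 1) scale understates changes of low genes. Alternatives were pseudocounts, filters, scalings, a Y-linked term, the replicate block, libraries left out, edgeR 4.0.16 and DESeq2 1.42.0. The 2 subset fits by Y-linked reads were added after seeing the data.

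Collagens with a mean of at least 10 at some time, or called in any comparison, were named (13), and other genes were named where the text says so. From the pathway lists, called genes were named, at most 4 a list. The members and lists were chosen with earlier results of these data known. Promoter windows are from RefSeq (GRCm38.p6), and no coordinates of the deposited build are given.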

Additional observations from a re-analysis of the deposited data

Results flagged for a closer look

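In the 13 named collagens and the 4 class sums, 51 sets of 4 libraries were examined for a library far from the others. For values without ties, chance alone singles out about 1 in 20 such sets. That rate does not hold for sets with zeros. A lone library above 0 is always singled out, as for Col2a1, Col10a1 and Col5a2 below, and a set wholly at 0 never is. Col2a1 at Day1 stood apart for replicate 4, at a deposited value of 72.9 against 0 in the other 3 libraries. Col10a1 stood apart for the same library, at 54.1 against 0. Col14a1 at Day1 stood apart for replicate 1, at 8.03 against 24.8 to 27.6 in the others. Col6a5 at Day7 stood apart for replicate 4, at 2.66 against 0.0688 at most. Col5a2 at Day7 stood apart for replicate 1, at 0.0688, which is a single read, against 0.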

How the results depend on the processing

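Direction held for every named collagen that was tested, under every alternative that gave a value, from Day1 to Day7 except Col18a1, whose difference was 0.21 with the term for Y-linked reads. From Day1 to Day7, collagen calls (5) became 9 with median-of-ratios scaling, 17 scaled to all reads and 17 scaled to reads outside haemoglobin. Those fits called 637 of 11209, 4065 of 11577 and 3843 of 11508 genes lower, against 403 of 11211 in the main fit. Collagen calls were 13 with the 2 groups alone, 14 with DESeq2 and 3 without the 2 libraries with the fewest genes. There, 1103 of 10109, 1251 of 11211 and 237 of 10970 genes were called lower. The number of collagens tested also differed among the fits. The collagen count was 0 with no filter, the Y-linked term or edgeR, which called 43, 0 and 1 of all genes lower. With single libraries left out it ran from 0 to 12, being 11, 8, 10 and 12 without 6h replicates 1 to 4. Without those 6h replicates, 787, 541, 482 and 628 of all genes were called lower. The median (-2.48) was -3.73 and -1.29 at pseudocounts of 0.25 and 4, -1.50 with no filter, -3.96 with a mean of at least 10, -3.93 scaled to all reads, -3.36 scaled outside haemoglobin, -0.95 with the Y-linked term, -3.53 with edgeR and -4.06 with DESeq2. The median of all genes, -0.48, was -1.77 scaled to all reads, -1.60 outside haemoglobin and -0.27 with the Y-linked term. From 6h to Day1 the count of 0 became 2 of 20 tested scaled to all reads and 1 of 22 outside haemoglobin. Those fits called 1240 of 11577 and 483 of 11508 genes higher, shares near those of the collagens. From 6h to Day7 the collagen count of 0 became 1 with median-of-ratios scaling, 1 with edgeR and 6 with DESeq2, which called 56, 26 and 796 of all genes lower. That median (-1.27) was -0.16 with no filter, -0.049 with the Y-linked term, -2.67 with edgeR, -2.83 with DESeq2 and 0.11 in libraries without Y-linked reads. The cause was not tested. No pairing by replicate number was seen in the values: deviations of the 12 same-numbered pairs correlated at -0.23 to 0.12, and 1 library of 12 correlated best with its own number. The labels do not say whether equal numbers share an animal or batch, and these correlations cannot decide it. With the replicate block, 7 collagens were called from Day1 to Day7, and 354 of all 11211 genes were called lower. Precision is low where collagen reads are few, as in Day7 replicate 3, with 59 of 9096780 reads.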
